A study of Mus musculus with 38 samples.

Results

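H3K27ac, measured by MINT-ChIP, a form of chromatin immunoprecipitation for small cell numbers, was compared between week 2 (W2) and week 6 (W6) of SOX9 induction in mouse epidermal stem cells (EpdSCs). The members are the peaks of the W2 list and of the W6 list, 29081 and 30516 intervals, out of 156394 H3K27ac peaks over the 5 lists of skin. A peak counted as shared when a peak of the other list overlapped it by at least 1 bp. At W2, 9189 peaks had no W6 counterpart, 31.6% of the list, and are called W2-only. At W6, 9555 peaks had no W2 counterpart, 31.3% of the list, and are called W6-only. The remaining 19892 W2 peaks and 20961 W6 peaks were shared. Had an overlap of 50% of the shorter peak been required, 10373 W2 and 10997 W6 peaks would have been unshared. With peaks up to 500 bp apart counted as shared, 7924 and 7837 would have been. Each peak is described by its width, by its fold, which is the authors' linear ratio of the read pileup to the local background at the summit, by its place in the genome and by the genes near it.

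All animals were male K14rtTA; TRE-myc-Sox9 mice, in which the Krt14 promoter drives rtTA and doxycycline (DOX) then turns on a MYC-tagged Sox9 transgene. DOX was injected at postnatal day 21 and given in the feed for 2 weeks (W2) or 6 weeks (W6), and EpdSCs were sorted from back skin as cells with high CD49f and Ly6A that lacked CD34 and the markers CD31, CD45, CD117 and CD140a. H3K27ac lists of D0 (uninduced cells), W1 (1 week of DOX) and W12 (12 weeks of DOX, from grafts on immunocompromised hosts) were used only to look up the W2 and W6 peaks, and H3K4me1 domains of W2 and W6 likewise. The W2 and W6 lists stand on 8 libraries, 4 for each week, with a high and a low micrococcal nuclease digest of each replicate. In 2 of the W2 libraries, those of replicate 1, chromatin of W12 was sequenced too and told apart by its barcode. The number of animals behind a replicate is not given in the sources used here. DOX began at the same age in the W2 and W6 mice, so the W6 mice were older at sorting. Age and time on DOX cannot be told apart here. Because the authors merged replicates before calling peaks, 1 list stands for each week, no spread between replicates could be computed and no p-value is given. The 95% intervals below (exact Clopper-Pearson for shares, Newcombe for differences of shares, order statistics for medians) cover counting error only.

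H3K27ac is laid down by the acetyltransferases p300 and CBP at active promoters and enhancers, whereas H3K4me1 marks enhancers both before and during activity. SOX9 is an HMG-box transcription factor that specifies hair follicle stem cells and is silent in the interfollicular epidermis. Epidermal stem cells sit on the basement membrane, express keratins 5 and 14 and p63, and supply the stratified layers above them.

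The windows below show what the unshared peaks look like at base level. Each is 200 bases of GRCm38 on the plus strand, centred on the summit of a distal peak (over 2500 bp from any start site) at a gene described further on. The peak shown is the one of highest fold that held a SOX, RUNX or AP1 motif outside exons, so the presence of a motif was the criterion and not a result. Capitals mark the motifs SOX (ACAAAG or ACAATG), RUNX (TGTGGT) and AP1 (TGANTCA) on either strand. The 5 W2-only windows lie at Nfib (chr4:82499353-82499552), Trp63 (chr16:25899569-25899768), Egfr (chr11:16777326-16777525), Tcf7l1 (chr6:72770637-72770836) and Gli2 (chr1:118976845-118977044). All are intronic except that at Trp63, which is intergenic.
Nfib: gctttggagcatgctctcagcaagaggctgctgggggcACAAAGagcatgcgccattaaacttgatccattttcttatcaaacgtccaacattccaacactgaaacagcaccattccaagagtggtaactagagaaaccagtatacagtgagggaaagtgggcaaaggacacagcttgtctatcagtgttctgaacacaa
Trp63: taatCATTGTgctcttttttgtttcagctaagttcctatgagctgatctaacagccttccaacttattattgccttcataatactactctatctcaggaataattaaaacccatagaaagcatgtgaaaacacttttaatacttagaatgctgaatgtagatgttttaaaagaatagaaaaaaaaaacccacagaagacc
Egfr: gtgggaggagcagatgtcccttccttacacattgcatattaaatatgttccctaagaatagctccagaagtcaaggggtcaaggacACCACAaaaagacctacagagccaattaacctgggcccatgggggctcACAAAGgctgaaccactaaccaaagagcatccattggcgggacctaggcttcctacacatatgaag
Tcf7l1: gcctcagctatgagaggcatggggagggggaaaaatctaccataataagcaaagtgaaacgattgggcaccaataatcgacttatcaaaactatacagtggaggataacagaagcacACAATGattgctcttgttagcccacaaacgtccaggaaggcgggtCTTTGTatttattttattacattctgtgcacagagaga
Gli2: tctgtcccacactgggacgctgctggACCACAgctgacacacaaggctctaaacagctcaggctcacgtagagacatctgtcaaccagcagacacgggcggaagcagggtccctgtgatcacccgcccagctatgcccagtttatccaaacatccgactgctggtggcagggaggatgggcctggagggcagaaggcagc
The 5 W6-only windows lie in introns at Runx2 (chr17:44500858-44501057), Runx1 (chr16:92690727-92690926), Cdh1 (chr8:106612374-106612573), Ereg (chr5:91083190-91083389) and Dst (chr1:34074845-34075044).
Runx2: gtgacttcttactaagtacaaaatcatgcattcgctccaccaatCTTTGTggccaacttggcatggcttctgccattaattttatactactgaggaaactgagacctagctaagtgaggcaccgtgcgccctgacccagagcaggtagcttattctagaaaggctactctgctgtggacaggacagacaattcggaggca
Runx1: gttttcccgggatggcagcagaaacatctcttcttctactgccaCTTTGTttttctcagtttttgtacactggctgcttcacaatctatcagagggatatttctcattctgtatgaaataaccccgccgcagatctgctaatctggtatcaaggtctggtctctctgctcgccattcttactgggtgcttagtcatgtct
Cdh1: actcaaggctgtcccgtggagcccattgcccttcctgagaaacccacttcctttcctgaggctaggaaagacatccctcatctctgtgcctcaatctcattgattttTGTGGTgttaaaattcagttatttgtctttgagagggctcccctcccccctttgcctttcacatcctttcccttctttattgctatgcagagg
Ereg: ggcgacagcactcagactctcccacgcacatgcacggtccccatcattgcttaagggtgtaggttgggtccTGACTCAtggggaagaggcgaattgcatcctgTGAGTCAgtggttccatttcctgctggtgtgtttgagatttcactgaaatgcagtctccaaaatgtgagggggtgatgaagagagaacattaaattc
Dst: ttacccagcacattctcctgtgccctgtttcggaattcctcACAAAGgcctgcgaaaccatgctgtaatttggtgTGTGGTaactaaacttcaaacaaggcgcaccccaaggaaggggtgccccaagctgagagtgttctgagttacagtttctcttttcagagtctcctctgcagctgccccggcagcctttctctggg
For comparison, 21.2% of 32851 RefSeq promoter sequences (GRCm38) held the SOX letters, 11.6% the RUNX letters and 5.57% the AP1 letters. Only the first 200 bases of each promoter sequence were searched, here and below, and these need not be centred on the start site.

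The sorted cells carried the marks of basal epidermis at both weeks. Krt5, Krt14, Trp63, Itga6, Itgb4 and Col17a1 all had a promoter peak (within 2500 bp of a start site) in both lists. Among 20 markers of other cell types of skin, among them melanocytes, immune cells, fibroblasts, endothelium and Merkel cells, 16 had no promoter peak in either list, Pmel and Pecam1 were among those with one in both, and Mitf had one at W6 alone, with a fold of 5.96. The W6 list was the deeper of the pair: the genome-wide background pileup was 0.677 at W6 against 0.425 at W2, and the smallest pileup called was 5 against 4. Scaled down by the ratio of these backgrounds, 69.9% of W6-only peaks (68.9 to 70.8%) and 93.6% of shared W6 peaks would still have reached the smallest W2 pileup. With the W6 list limited to those peaks, 10208 W2 peaks (35.1%) and 6676 W6 peaks (25.4%) were unshared.

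Unshared peaks were weak and narrow at both weeks. W2-only peaks had a median fold of 4.91 and a median width of 492 bp (486 to 497 bp), and W6-only peaks 4.77 and 418 bp (413 to 422 bp). Shared peaks had a median fold of 7.72 at W2 and 8.35 at W6, with median widths of 1081 and 980 bp. A narrow peak has less room for an overlap, and a peak near the calling limit is easily missed in the other list. The rule that defines the classes thus favours this contrast with shared peaks, which is no separate result. The narrowest peak called was 320 bp at W2 and 268 bp at W6, so widths are not on equal terms between the lists.

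The unshared classes differed in where they lay. Distal positions held 81.4% of W2-only peaks (80.6 to 82.2%) and 69.1% of W6-only peaks (68.2 to 70.0%), a difference of −12.4 percentage points (−13.6 to −11.1), against 45.7% and 47.5% of the shared peaks. Peaks over a start site made up 3.38% of W2-only and 10.5% of W6-only peaks, and a further 15.2% and 20.4% lay within 2500 bp of one without covering it. Introns held 50% of W2-only and 41.8% of W6-only peaks, and intergenic sequence 29.2% and 24.1%. The median distance to a start site was 12189 bp (11723 to 12658 bp) for W2-only and 7680 bp (7324 to 7998 bp) for W6-only peaks. The difference in place was thus larger than the counting error, while its spread between animals was not measured.

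**Figure D1:**
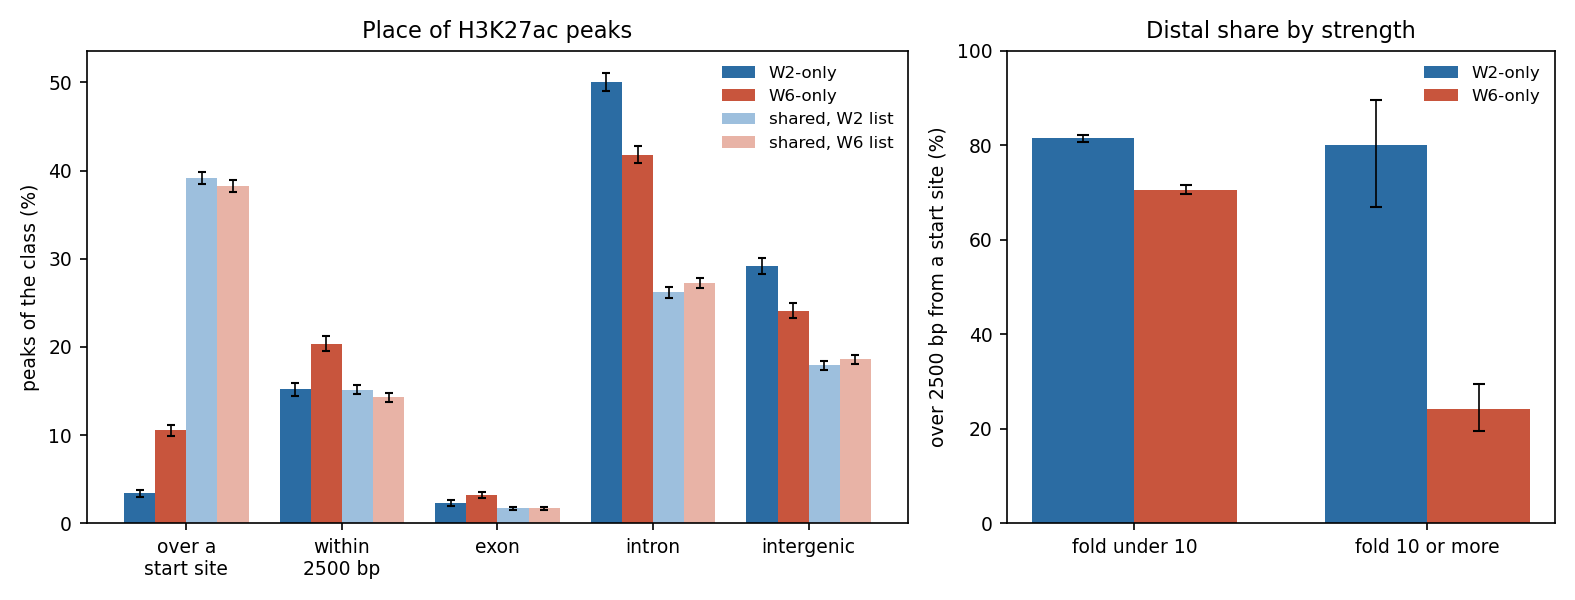
Left, share of peaks (%) in each genomic place for the unshared and shared peaks of W2 and W6. Right, share over 2500 bp from a start site by fold. Bars are shares and error bars exact 95% counting intervals. W2-only peaks are the most intronic and intergenic class, and among peaks of fold 10 or more the distal share is 80.0% at W2 and 24.3% at W6.

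The strongest unshared peaks differed most in place. A fold of 10 or more was reached by 55 W2-only peaks (0.599%) and 301 W6-only peaks (3.15%). Of the 55, 80.0% were distal (67.0 to 89.6%) and 5.45% lay over a start site. Of the 301, 24.3% were distal (19.5 to 29.5%) and 57.8% lay over a start site (52.0 to 63.5%). Their median widths were 1031 bp at W2 and 757 bp at W6. The local background at the summit was above the genome-wide level for 1.82% of the W2-only and 11.3% of the W6-only peaks of this strength.

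The 10 W2-only peaks of highest fold had folds of 13.3 to 18.2, and 8 of them were distal. The strongest lay over the start of 1700061I17Rik (chr3:117075916-117077968, 2053 bp, fold 18.2) and 68898 bp from Gm14222 (chr2:160512649-160514459, 1811 bp, fold 18.2). Next came a 3662-bp peak over the start of Lmtk2, which encodes a kinase, and peaks nearest to Atp12a, a proton pump gene, and Gm40437, each with a fold of 14.7. All 10 lay in H3K4me1 domains of W2 and of W6, all had a local background at the genome-wide level, and 5, 6 and 4 of them were also called at D0, W1 and W12. Among W2-only peaks that no other H3K27ac list contained, the highest folds were 14.7 (Gm40437), 13.3 (Gm14582 and Gm6921), 11.9 (Gfod1, outside the H3K4me1 domains of both weeks) and 11.2 (Mir99ahg).

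The 10 W6-only peaks of highest fold ranged from 18.5 to 30.7. The first 4, nearest to Gm15739 (fold 30.7), Gm48224 (23.1), Gm45677 (22.8) and Hic2 (21.5), were between 297 and 316 bp wide. Their local background stood at 2.47, 7.60, 1.24 and 1.0 times the genome-wide level in that order. All 4 were also called at D0 and none of them at W1 or W12. The others included peaks over the starts of Rbm12b2 (fold 20.9), Haghl (20.2), Park7 (18.5), whose product is a sensor of oxidative stress, and Faim (18.5), an inhibitor of apoptosis. A single broad peak stood out by width, 4725 bp, at a distance of 29421 bp from the start of Adgrb1 (chr15:74593274-74597998, fold 19.1), and was called at W12 and neither at D0 nor at W1. Of these 10 peaks 9 lay in a W2 and 6 in a W6 H3K4me1 domain, and those outside W6 domains were the first 4. The 5 strongest that no other list contained were nearest to Zbed4 (16.1), Gm24136 (15.3), Cog7 (14.9), Gm37404 (14.6) and Gm47072 (14.3).

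Width picked out partly other peaks than fold, with Lmtk2 and Adgrb1 near the top by both. At W2 the 5 widest peaks ranged from 2972 to 3742 bp and were nearest to Gm24716, Lmtk2, Nedd4l, Sgms1 and 1700028E10Rik. All 5 were also called at W1, and 2 of them at W12. At W6 the 5 widest ranged from 2435 to 4820 bp and were nearest to 2900057B20Rik, Adgrb1, Otos, Gm3745 and Cyp7b1. Of these 5, 2 were also called at W1 and 4 at W12.

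Lookup in the other lists placed the classes in time. W1 contained 32.5% of W2-only peaks and 27.2% of W6-only peaks, a difference of −5.29 points (−6.59 to −3.98). W12 contained 16.5% of W2-only and 21.5% of W6-only peaks, a difference of 5.03 points (3.91 to 6.15), although the W2 list shares libraries with W12 and the W6 list does not. D0 contained 25% and 28.5%, a difference of 3.59 points (2.32 to 4.85), which among distal peaks was 1.05 points (−0.37 to 2.48). Peaks called in no other H3K27ac list made up 50.7% of W2-only and 48.9% of W6-only peaks, compared with 7.75% of the shared W2 peaks. Shared W2 peaks were found at D0, W1 and W12 in 76.1%, 80.3% and 63.9% of cases. Shared peaks were also stronger and wider, and these shares were not matched for either. Among W2-only peaks the W1 share was 69.1% at a fold of 10 or more and 32.3% below it.

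**Figure D2:**
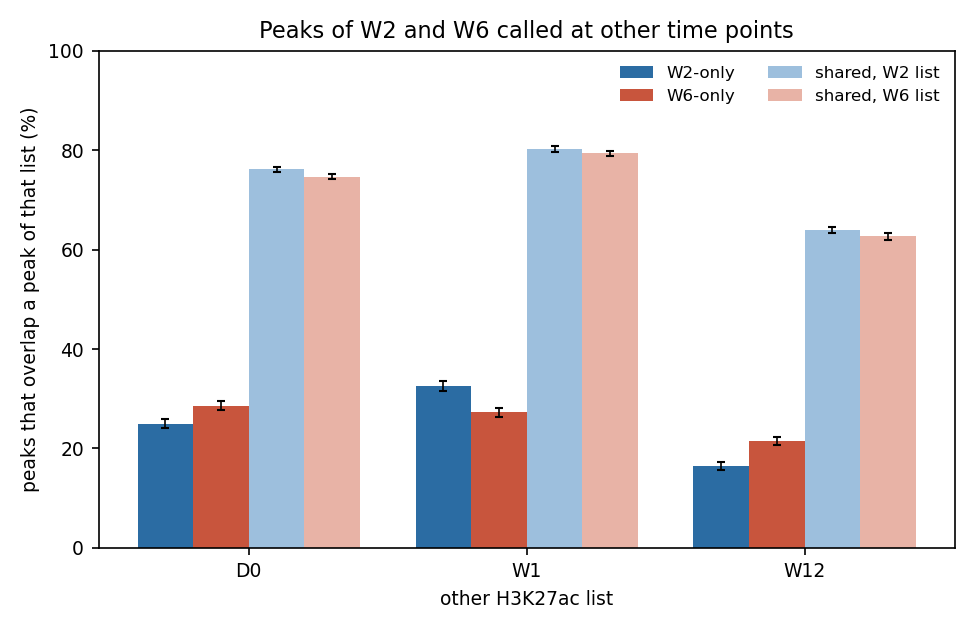
Share (%) of W2-only, W6-only and shared peaks that overlap a peak of the D0, W1 or W12 H3K27ac list, with exact 95% counting intervals. W2-only peaks are found more often at W1 (32.5% against 27.2%) and W6-only peaks more often at W12 (21.5% against 16.5%), and shared peaks exceed both at every time point.

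By pattern, 15.3% of W2-only peaks were called at W1 and at neither D0 nor W12, compared with 10.5% of W6-only peaks. The pattern of W12 alone held 5.85% of W2-only and 9.12% of W6-only peaks, and D0 alone 8.15% and 10.7%. W6-only peaks of fold 10 or more were present at D0 in 62.8% of cases (57.1 to 68.3%), and W2-only peaks of that strength in 40.0% (27 to 54.1%). At W1 the shares were 50.8% of these W6-only and 69.1% of these W2-only peaks. At W12 they were 39.2% (33.7 to 45.0%) and 43.6% (30.3 to 57.7%). The higher W12 share of W6-only peaks was thus not seen at this strength.

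Nearly all unshared peaks lay in H3K4me1 domains, whichever week the domain came from, and shared peaks did so slightly more often. W2-only peaks were in a W2 domain in 95.1% and in a W6 domain in 94.2% of cases. W6-only peaks were in a W2 domain in 91.7% and in a W6 domain in 96.0% of cases. Shared W2 peaks were in a W2 domain in 96.8% and in a W6 domain in 97.8% of cases. For shared W6 peaks these shares were 96.9% and 98.1%. Only the W6 list of domains covered 1.68% of W2-only and 5.12% of W6-only peaks, a difference of 3.44 points (2.93 to 3.96). Only the W2 list covered 2.61% and 0.785%. H3K4me1 at both weeks was therefore present at 92.5% of W2-only and 90.9% of W6-only H3K27ac peaks.

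Genes were then examined over their length with 10 kb on either side. Of 21938 protein-coding genes, 19.5% had a W2-only peak and 26.7% a W6-only peak, and counted gene by gene there were 7853 W2-only and 9821 W6-only peaks. More W6-only than W2-only peaks were found at 4271 genes and the reverse at 2659. Of 11234 genes with a promoter peak at W2 or W6, 3.20% had it at W2 alone and 11.0% at W6 alone, 360 and 1238 genes. A promoter is called at W2 alone or W6 alone here with respect to the other of the pair. W6 was the deeper list, and the part of depth in the larger W6 counts was not tested by gene. In these pooled cells, a mark in fewer cells and a weaker mark in each cell cannot be told apart. Gene counts below are to be read against these figures. Intronic counts grow with gene length, so counts are compared within a gene.

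Hair follicle stem cell genes leaned towards W2. The 20 listed genes had 85 W2-only and 37 W6-only peaks, 11 of them had more W2-only and 3 more W6-only peaks, and of the 15 with a promoter peak at either week, 6 had it at W2 alone and 0 at W6 alone. Lgr6, an R-spondin receptor of follicle and epidermal stem cells, had a promoter fold of 6.16 at W1 and 10.5 at W2, with no promoter peak at D0, W6 or W12. The W2 peak (chr1:135019363-135020872) was 1510 bp wide, with its summit 1584 bp from an annotated start site. Lgr6 spans chr1:134983301-135105276 on the minus strand, so this start site lies inside the gene and not at its 5' end. Introns of Lgr6 held 4 W6-only peaks. Tbx1, a T-box factor of bulge stem cells, had a promoter fold of 7.02 at W2 and no promoter peak in the other 4 lists. Lhx2, a LIM-homeodomain factor of the follicle, and Tcf7l1, a repressor of WNT targets, each had a promoter fold of 4.91 at W2 and none elsewhere. The promoter of Cd34, the surface marker by which bulge cells are gated out of this sort, was called at W2 alone too, with a fold of 4.73. Npnt, a matrix protein, had 4.66 at D0 and 5.61 at W2. These promoter peaks were weak, with summit pileups of 6 to 9 reads, apart from 14 at Lgr6, where the smallest called at W2 was 4.

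Nfib had the most unshared peaks of any listed gene. This follicle stem cell factor carried 28 W2-only and 9 W6-only peaks beside 18 shared W2 peaks. Of the 28, with folds of 3.51 to 8.42, 26 were intronic, 9 held a SOX motif, 14 were in no other H3K27ac list and all lay in a W2 H3K4me1 domain. The window printed above for Nfib comes from a peak of fold 8.42, also called at D0 and W1. Its promoter was called in all 5 lists, with folds of 13.3 at W2 and 17.3 at W6, beside 12.7 at D0, 16.2 at W1 and 12.8 at W12.

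Other follicle genes showed the same excess on a smaller scale. Tcf7l1 had 7 W2-only peaks against 1, Lhx2 5 against 0, Tcf7l2 8 against 3 and Nfix 8 against 4. All 5 peaks of Lhx2, and 6 of 7 at Tcf7l1, were in none of the D0, W1 and W12 lists. Col17a1, which anchors hemidesmosomes, differed, since all 5 of its W2-only peaks were also called at D0 and none at W1. Lrig1 carried 12 against 9 and Nfatc1 1 against 4. Among promoters called in both lists, Foxc1, a factor that keeps follicle stem cells quiescent, had folds of 11.2 at W2 and 20.3 at W6, beside 4.0 at D0, 3.85 at W1 and 9.21 at W12. Sox9 itself had 24.6 at W2 and 25.6 at W6, beside 14.7 at D0, 28.5 at W1 and 9.92 at W12, and exonic reads of the transgene cannot be told apart from those of the endogenous gene. These folds are relative to each list's own background and were not scaled between lists. Genes whose promoters were called at both weeks are named here and below after their values were seen.

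Epidermal identity factors had promoter peaks at both weeks, except Jag2, and W2-only peaks mainly in a few genes. Of 22 genes, 21 had a promoter peak in both lists, with 48 W2-only against 38 W6-only peaks in total. The W6-only peaks were spread more widely, since 17 genes had at least 1 of them and 10 had at least 1 W2-only peak. Trp63, the master regulator of stratified epithelia, had 16 W2-only and 3 W6-only peaks. The 16 had folds of 3.51 to 7.02, and 13 of them were in no other H3K27ac list, among them the intergenic peak whose window is printed above (fold 7.02, 1550 bp). Its promoter folds were 15.4 at W2 and 16.1 at W6, beside 19.99 at D0, 12.3 at W1 and 9.21 at W12. Egfr, the epidermal growth factor receptor, had 13 W2-only and 3 W6-only peaks, and 7 of its 13 were also called at D0. Together Trp63 and Egfr account for most of the W2-only peaks of the list, since 13 of the 22 genes had more W6-only and 4 more W2-only peaks. Jag2, a NOTCH ligand, was the listed factor whose promoter was called at W2 (7.72), D0 (5.33) and W1 (3.85) and not at W6 or W12, and it had 4 W2-only peaks against 0.

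Basal keratin and adhesion genes had more W6-only peaks in total. All 16 had promoter peaks at both weeks, with 19 W2-only and 34 W6-only peaks. By gene the balance was close to that of all genes, since 7 had more W6-only and 4 more W2-only peaks, and 12 had at least 1 W2-only and 11 at least 1 W6-only peak. Sdc1, a cell-surface proteoglycan, had 1 against 7, and all 7 were in no other H3K27ac list. Dst, a linker of hemidesmosomes to keratin filaments, had 2 against 7, and the laminin genes Lama3 and Lama5 had 2 against 5 and 1 against 4. Krt15, a keratin of basal and bulge cells, differed in the other direction, with promoter folds of 9.82 at W2 and 3.58 at W6, beside 9.33 at D0 and 6.93 at W1, no promoter peak at W12, and 2 W2-only peaks against 0.

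Hedgehog genes were split. The 14 genes had 16 W2-only and 11 W6-only peaks. Gli2, the main transcriptional activator of the pathway, had 7 against 1, and all 7 were in no other list, 4 of them with a SOX motif. Its promoter was called at W1 (4.62), W2 (10.5) and W6 (7.16) and not at D0 or W12. The promoters of the co-receptor Cdon and of Hhat, which palmitoylates the ligand, were called at W6 (9.54 and 5.37) and not at W2, although both were called at D0 (11.3 and 7.33), W1 (4.62 and 6.93) and W12 (8.50 and 12.04), so that W2 was the list of the 5 without them. Cdon nonetheless had 3 W2-only peaks against 1. The target genes Gli1 and Ptch1 had promoter peaks in all 5 lists, with folds of 10.5 and 7.02 at W2 and 11.3 and 14.9 at W6. Shh and Hhip had none in any list.

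RUNX, AP1 and NF-kB factors had more W6-only peaks in total, though not in most genes. Of 18 genes, 17 had promoter peaks at both weeks, with 20 W2-only and 30 W6-only peaks, while 5 genes had more W6-only and 4 more W2-only peaks, a smaller excess than over all genes, and 11 had a W2-only and 9 a W6-only peak. Runx1 had 2 against 6 and Runx2 3 against 6, both DNA-binding partners of CBFB. The 6 peaks of Runx2 had folds of 5.37 to 8.95, and 4 of them were in no other list, while the 1 printed above (fold 7.03) was also called at W12. Its promoter folds were 6.32 at W2 and 9.54 at W6, beside 4.0 at D0, 6.16 at W1 and 8.50 at W12. The AP1 subunits Fosl2 and Fosb had 2 against 5 and 0 against 3. The promoter of Fosl1, another subunit, had 7.02 at W2 and 16.1 at W6, beside 17.3 at D0, 6.93 at W1 and 7.79 at W12.

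Growth factors and cell cycle genes included several promoters called at W6 and not at W2. Of 19 cytokine and growth factor genes, 9 had a promoter peak at either week, 3 of these at W6 alone and 0 at W2 alone. Gene by gene they had 7 W2-only and 12 W6-only peaks, with the same peak counted for both Cxcl1 and Cxcl2. Ereg and Areg, neighbouring genes for EGFR ligands, had promoter folds of 5.37 each, and Ereg had 3 W6-only peaks against 0. The intronic peak behind the Ereg window printed above, with 2 AP1 motifs, had a fold of 5.96 and was also called at W12. The peak counted for the promoter of Il18 (5.96) lies over the start of the neighbouring gene Bco2. Cxcl14, a chemokine, had 14 at W2 and 4.77 at W6, beside 11.3 at D0 and 8.47 at W1, and none at W12.

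Of 18 cell cycle genes, 17 had a promoter peak at either week, 4 of these at W6 alone and 1 at W2 alone. Cdkn2b, which encodes the CDK inhibitor p15, had promoter folds of 6.0 at D0, 11.3 at W6 and 10.6 at W12, and no promoter peak at W1 or W2. E2f1 (9.54) and the cyclin gene Ccne1 (7.75) had one at W6 alone of the 5 lists. Mki67, a marker of cycling cells, had 6.0 at D0, 3.85 at W1 and 8.35 at W6. The exception was Mycn, called at W2 alone with 4.21. Bcl2, an inhibitor of apoptosis, had 6 W2-only peaks against 0, and Ccnd1, which encodes cyclin D1, 0 against 3.

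**Figure D3:**
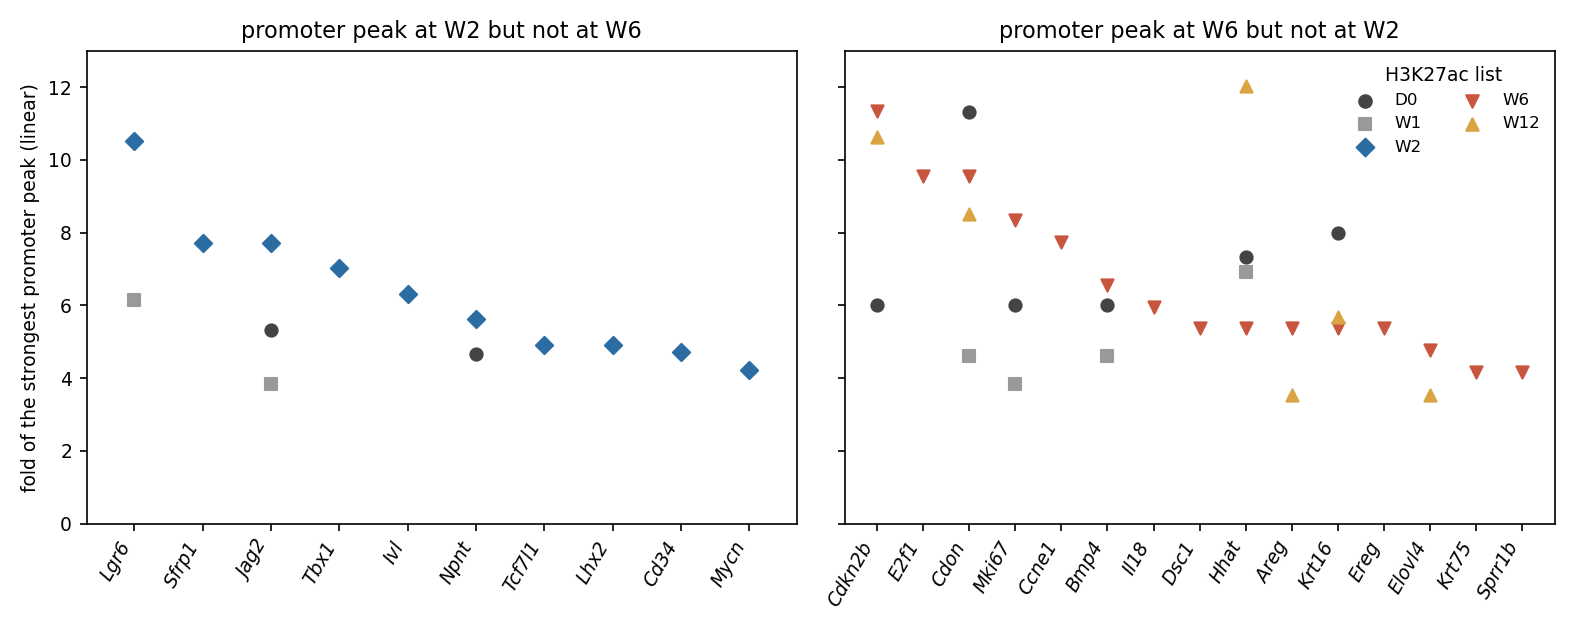
Fold (linear) of the strongest promoter peak in the D0, W1, W2, W6 and W12 lists for listed genes with a promoter peak at W2 but not W6 (left) and at W6 but not W2 (right), leaving out Mitf. A missing symbol means that no promoter peak was called. Of the W2 group Lgr6 is the strongest at 10.5, at a start site inside the gene, and none is called at W12. Cdkn2b, at 11.3, leads the W6 group.

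Barrier genes and stress keratins were mixed. Of 19 suprabasal and barrier genes, 12 had a promoter peak at either week. Of these, 1 promoter was called at W2 alone, that of the cornified envelope gene Ivl (6.32), and 3 at W6 alone, those of the desmosomal gene Dsc1 (5.37), the lipid elongase gene Elovl4 (4.77) and Sprr1b (4.17). Among 11 stress and simple keratins, 6 had a promoter peak at either week. Of these, Krt16 had 5.37 and Krt75 had 4.17 at W6 and neither had a promoter peak at W2, and Krt16 had 8.0 at D0 and 5.67 at W12. Krt6a, a keratin of follicles and wounds, had folds of 9.82 at W2 and 12.5 at W6, beside 5.39 at W1 and 9.21 at W12, and no promoter peak at D0. Counting a peak between neighbouring genes once, there were 12 W2-only and 13 W6-only peaks at barrier genes and 8 and 7 at these keratins.

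Of 28 WNT, BMP and TGF-beta genes, 20 had a promoter peak at either week. Among these the WNT inhibitor Sfrp1 was called at W2 alone (7.72), and Bmp4 at W6 (6.56), D0 (6.0) and W1 (4.62) but not at W2. They had 19 W2-only and 27 W6-only peaks. Inhba, an activin subunit, had a promoter fold of 4.91 at W2 and 13.1 at W6, beside 12 at D0, 5.39 at W1 and 4.25 at W12. Of 20 genes of mesenchymal transition, matrix and invasion, 13 had no promoter peak at either week, among them Vim, Snai1, Twist1, Zeb1 and Cdh2, and 0 differed between weeks. Plau, the urokinase gene, had promoter folds of 7.02 at W2 and 19.1 at W6, beside 24.0 at D0, 10.01 at W1 and 9.92 at W12. Cdh1, which encodes E-cadherin, had 1 W2-only and 4 W6-only peaks, of which 3 were also called at D0, the printed one among them.

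**Figure D4:**
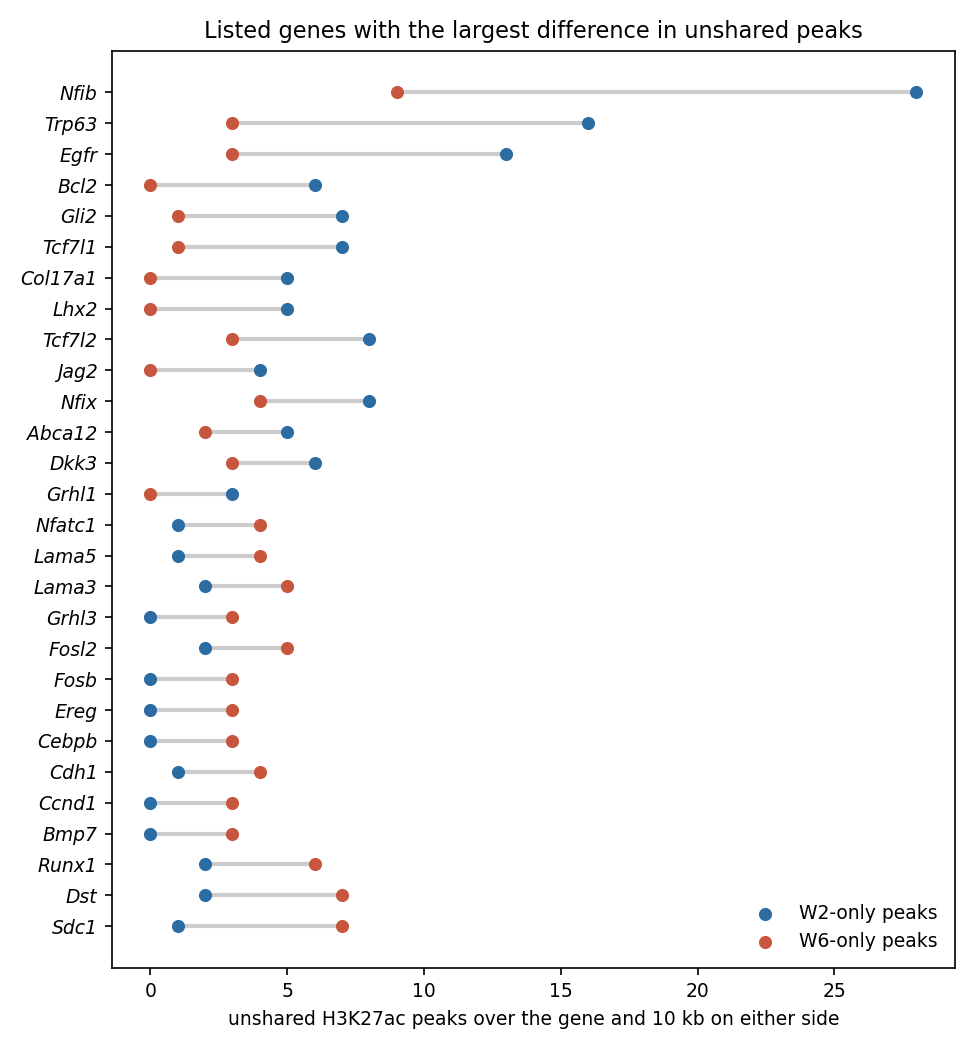
Numbers of W2-only (blue) and W6-only (red) H3K27ac peaks over a gene and 10 kb on either side, for listed genes with the largest difference, with a grey line joining the pair. Nfib, with 28 against 9, Trp63, with 16 against 3, and Egfr, with 13 against 3, lie far to the right of the others, and Sdc1 and Dst have the most W6-only peaks of the lower group, 7 each.

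Beyond the lists, the promoters with the strongest peak at W2 alone were those of Morn3 (21.1), Lgr6 (10.5), Zfp874a, Ucp3 and Zfp459 (each 9.82), Ncald, Frmd4a and Inpp1 (each 9.12) and Ldlrad4 and Fgd3 (each 8.42). The Lgr6 peak is the one described above, at a start site inside the gene. Ucp3 encodes a mitochondrial carrier and Inpp1 an inositol phosphatase. At W6 alone they were those of 4930415O20Rik (32.8), Gm29666 (29.2), Vmn1r238 (25.05), Vmn1r2 (23.3), Ccdc78 and Haghl (each 20.2), Rhof (19.1), Faim (18.5), Mrps18a (17.3) and Sox7 (16.7). For Morn3, 4930415O20Rik, Gm29666, Vmn1r238 and Rhof the peak was a shared one whose counterpart lay outside the promoter window, and these promoters held no unshared peak. The peak of fold 23.3 at Vmn1r2 was shared as well, but its promoter also held an unshared W6 peak. Over all genes this was rare: 355 of the 360 W2-alone promoters and 1228 of the 1238 W6-alone promoters held an unshared peak. Ccdc78 and Haghl are neighbours counted by the same peak. Sox7, a factor of the SOX family, had promoter folds of 8.66 at D0, 10.01 at W1, 16.7 at W6 and 5.67 at W12 and no promoter peak at W2.

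By nearest start site, W2-only peaks gathered at n-R5s188, a small RNA gene inside the Nfib locus (21 W2-only against 7 W6-only peaks), Gm12421 (14 against 1), Trp63 (14 against 3), Nedd4l, a ubiquitin ligase gene (13 against 1), and Fgfr2, a receptor for fibroblast growth factors (12 against 1). Then came AC126944.1 (10 against 4), Dab2ip (10 against 5), Ext1 (10 against 4), Gm14064 (10 against 0) and Rxra (10 against 8). W6-only peaks gathered at Cmip (14 against 3), Rad51b (11 against 9), Vav3 (11 against 6), Tns3 (10 against 1), Gm26144 (10 against 3) and Sipa1l3 (10 against 6). Among those that followed, Myo1e had 9 against 4, while Pard3 with 9 against 8 and 2610035D17Rik with 9 against 9 were nearly or fully balanced. Of the 10 genes with the most nearest peaks in each class, only Gm14064 had no unshared peak of the other week, and the others held sites of both kinds.

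Among peaks called in both weeks, 16328 formed 1-to-1 pairs. Their log2 folds correlated across pairs (Pearson r = 0.710, Spearman rho = 0.674), with points that share libraries and are not independent replicates. The median log2 ratio of W6 to W2 fold was 0.18, and changes are given relative to it. A shift of more than 1 on the log2 scale above the median was seen in 572 pairs (3.50%) and below it in 541 (3.31%). Pairs more than 1 above the median were distal in 15.6% of cases (12.7 to 18.8%), pairs more than 1 below it in 80.2% (76.6 to 83.5%), and pairs within 1 of the median in 44.1%. Shared peaks thus differed in place in the same direction as unshared ones. The shift also varied with strength at W2. Relative to the median of all pairs, its median was 0.43 for W2 folds under 4 and −0.074 for W2 folds of 10 or more. The part of this in the difference in place was not tested.

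The 10 pairs farthest above the median all lay within 2500 bp of a start site, 7 of them over it. They belonged to Tmed4 (fold 4.21 at W2 and 22.7 at W6), Thop1 (4.21 and 20.9), Gm30238 (5.61 and 27.4), Psph (3.51 and 16.1), Rad23b (5.61 and 25.6), Bpnt1 (4.21 and 18.5), Cep170b, Uhrf1 and Dgke (each 3.51 and 14.9) and Cep192 (4.21 and 17.9). Psph encodes an enzyme of serine synthesis, Rad23b a DNA repair protein, and Uhrf1 a factor that maintains DNA methylation in dividing cells. Of the 10 pairs farthest below the median, 8 were distal. The highest of these at W2 was nearest to Hmgb3-ps (24.6 at W2 and 6.56 at W6), followed by those nearest to Sirpa (20.3 and 6.23), Gm23513 (16.8 and 4.17) and Defa-ps11 (16.8 and 5.37). Others were nearest to Creb5 (14 and 4.17), 1700102H20Rik (13.3 and 3.58), Mir708 and Ptpn21 (each 13.3 and 4.17) and Gm48569 (11.2 and 3.82). All 10 were called at W1 and at W12 as well.

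Motif content separated the classes modestly. The SOX letters stood within 100 bp of the summit in 27% of W2-only peaks (26.1 to 27.9%), 22.0% of W6-only peaks (21.2 to 22.8%) and 19.9% of shared W2 peaks. The difference between W6-only and W2-only peaks was −5.01 points (−6.24 to −3.78), and −3.41 points (−4.85 to −1.95) among distal peaks. Base composition moved with it: the median GC content of the window was 46.5% in W2-only and 50% in W6-only peaks. With both classes given the same mix of GC content (6 GC classes, each weighted by its peaks from both) the difference was −1.81 points (−3.08 to −0.55), and −1.44 points (−2.91 to 0.04) among distal peaks. In peaks of fold 10 or more, SOX letters were found in 34.5% of W2-only (22.2 to 48.6%) and 12% of W6-only peaks (8.52 to 16.2%). The W2-only share stands on 19 of 55 peaks. These strong peaks were distal in 80.0% of cases at W2 and 24.3% at W6. Whether their SOX difference holds among distal peaks or with the same GC mix was not tested.

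RUNX letters were found in 13.9% of W2-only and 14.1% of W6-only peaks, a difference of 0.25 points (−0.74 to 1.25). Among distal peaks the shares were 14.4% and 15.8%, a difference of 1.39 points (0.21 to 2.58), or 1.26 points (0.05 to 2.46) with the same GC mix. AP1 letters were found in 6.85% and 5.92%, a difference of −0.92 points (−1.62 to −0.22) that was −0.27 points (−1.0 to 0.45) with the same GC mix. The GATA letters, AGATAA, were found in 10.9% of W2-only and 8.39% of W6-only peaks and in 8.42% of promoters, a difference between the classes of −2.50 points (−3.35 to −1.66). It was −1.55 points (−2.55 to −0.54) among distal peaks and 0.0050 points (−0.85 to 0.86) with the same GC mix. The NFI half-site, TTGGCA, was found in 12.6% and 10.4%, against 10.2% of promoters, and its difference was −2.17 points, or −2.26 (−3.21 to −1.32) with the same GC mix. The TEAD letters, GGAATG, were found in 12.1% and 10.5%, against 10.7% of promoters, a difference of −1.69 points, or −1.57 (−2.50 to −0.63) with the same GC mix. The LHX letters, TAATTA, were found in 4.17% and 2.77%, against 4.19% of promoters, a difference of −1.39 points that was −0.18 (−0.72 to 0.35) with the same GC mix. The KLF letters, CCACNCCC, were found in 6.41% of W2-only and 8.0% of W6-only peaks and in 11.9% of promoters. The difference between the classes, 1.59 points, was 1.07 (0.26 to 1.88) among distal peaks. It turned to −0.55 (−1.34 to 0.24) with the same GC mix. The ETS letters, CCGGAAG, were found in 0.936% and 2.11%, against 3.98% of promoters, and their difference of 1.18 points was 0.23 points (−0.09 to 0.55) among distal peaks and 0.46 (0.11 to 0.81) with the same GC mix. All motifs were searched on both strands. Matches are letters in a window and do not show binding.

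**Figure D5:**
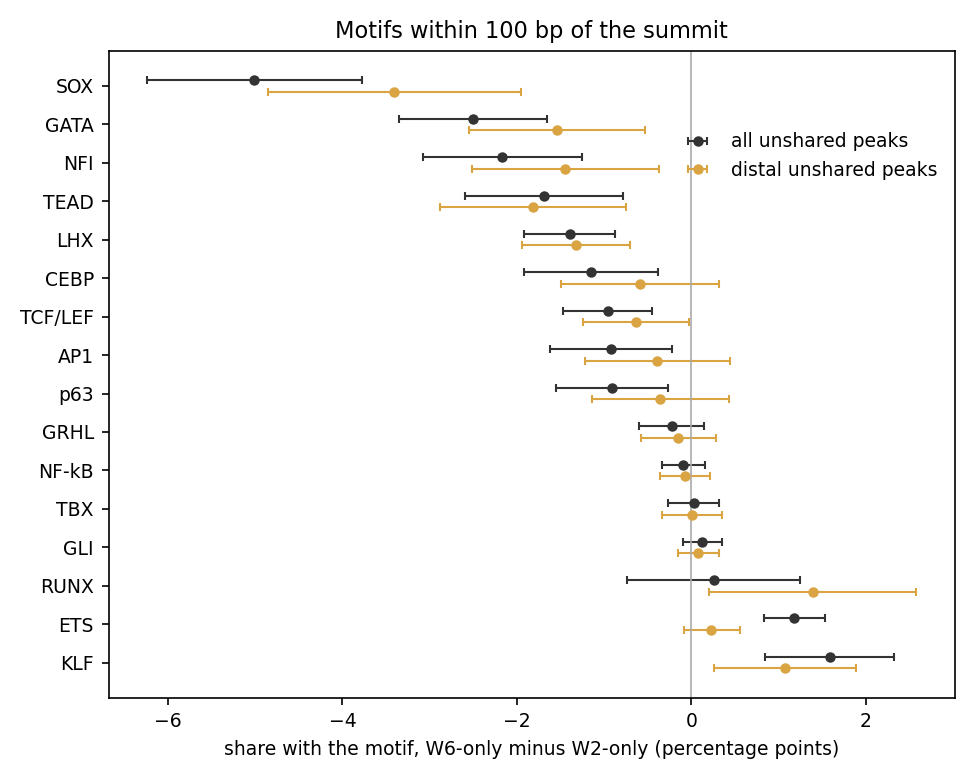
Difference in the share of peaks with each motif within 100 bp of the summit, W6-only minus W2-only, in percentage points, for all (black) and distal (yellow) unshared peaks, with Newcombe 95% counting intervals. SOX is the farthest left at −5.01 points for all peaks, and ETS and KLF are to the right for all peaks. KLF stays to the right for distal peaks, at 1.07 points. With the same GC mix in both classes, a setting not among these series, the KLF difference was −0.55 (−1.34 to 0.24).

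Set among the neighbouring intervals of the time course, W2 and W6 shared more peaks than W1 and W2 or W6 and W12. From W1 to W2, 37.0% of W1 peaks had no W2 counterpart and 34.8% of W2 peaks had no W1 counterpart. From W6 to W12 these shares were 50.2% and 51.9%. The unshared share of W2 peaks in the step to W6 was lower than that of W1 peaks in the step to W2 by a difference of −5.42 points (−6.16 to −4.67), and lower than that of W6 peaks in the step to W12 by −18.6 points (−19.4 to −17.8). Depth differed between the lists and the W12 cells came from grafts, and neither can be told apart from time here.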

How the data were processed

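The data are MINT-ChIP peak lists of sorted EpdSCs (8 samples of 38 stand behind the W2 and W6 H3K27ac lists). Following the study's methods, the authors split reads by barcode, trimmed them, aligned them to GRCm38, removed duplicates, merged digests and replicates and called peaks. The submitters' processing notes name Bowtie2 2.2.9, SAMtools 1.9, Picard, MACS2 2.1.1, SICER 0.0.36, deepTools 2.5.4 and bcl2fastq. Labels give reads of 40 bp, and the callers' settings are not given in the sources used here. The deposited H3K27ac lists give, per peak, an integer score, a fold as a linear ratio, −log10 of the p-value and of the q-value, and the summit's offset. The deposited H3K4me1 domains carry a p-value from epic2, and only their positions were used. The largest q was 0.0409 at W2 and 0.0489 at W6.

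Peaks on 21 chromosomes were kept, setting aside 2 per list and 5 at W12. From the fold and the −log10 p the genome-wide background and the summit pileup were recovered (whole within 0.002 for 93.0% of W2 and 86.0% of W6 peaks). Depth as total reads is unknown. Places refer to 77221 start sites of GENCODE M21, and distal means over 2500 bp from any. Promoter sequences are RefSeq's. Python 3.11.15, numpy 2.4.6, pandas 2.3.3, scipy 1.17.1 and matplotlib 3.10.9 were used, and the functions were tested on simulated data.

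Members and gene lists were chosen with earlier results of these data known. Named were the 10 peaks of highest fold, overall and among distal peaks, the 5 widest and the 5 strongest in no other list of each class, the 10 most shifted pairs in each direction, the 10 genes with most nearest peaks, the 10 strongest promoters of 1 week, and listed genes with such promoters or most unshared peaks. Barcode files, culture lists and H3K4me1 of D0, W1 and W12 were not used here, and a few named genes are not reported here. Alternatives are given in the closing section.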

Additional observations from a re-analysis of the deposited data

How the results depend on the processing

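No paired analysis was possible because each deposited list pools its replicates, and for the same reason no replicate could be left out. Of 142 alternative values over 18 results and 15 settings, 86 stayed close to the reported value (within its counting interval, or near it for numbers of peaks), the others moved further, and the cause was not tested. The difference for W6 H3K4me1 domains changed sign under 2 alternatives, that for RUNX, whose reported interval spans 0, under 6, and those for GATA (to 0.0050) and KLF (to −0.55) with the same GC mix in both classes. The distal difference kept its sign in 11 of 11 alternatives, that at W12 in 10 of 10, that at D0 in 10 of 10, the SOX difference in 13 of 13, the AP1 difference in 13 of 13 and the RUNX difference in 7 of 13. Differences below are W6-only minus W2-only, in percentage points.

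Requiring overlap of 50% of the shorter peak gave median widths of 503 bp (W2-only) and 431 bp (W6-only) and a distal difference of −10.9. Counting a peak within 500 bp as shared gave a distal difference of −13.9 and −4.12 for W2 H3K4me1 domains. With q of 0.001 or less there were 6116 W2-only peaks, median widths were 594 and 493 bp, and differences were −16.7 for distal, 0.906 for W6 H3K4me1 domains and −0.957 for RUNX. Peaks with a fold above the median of their list numbered 1000 and 1408, with median widths of 790.5 and 660.5 bp and differences of −34.9 (distal), 9.40 (D0), −5.47 (W2 H3K4me1), −2.75 (AP1) and −10.7 (SOX), and the difference for W6 H3K4me1 turned to −0.906. Equal numbers of top-ranked peaks left 3965 and 3729, with 962 and 840 bp and differences of −34.1 (distal), 10.6 (D0), −4.21 (W2 H3K4me1), −3.22 (AP1), −1.73 (RUNX) and −8.70 (SOX), and W6 H3K4me1 turned to −1.69. Joining peaks less than 1000 bp apart gave 510 and 435.5 bp. Scaling W6 to the depth of W2 left 10208 W2-only and 6676 W6-only peaks, with median widths of 505 and 471 bp and differences of −15.6 (distal), 6.69 (W12), 6.10 (D0) and −2.43 (W2 H3K4me1). A motif window of 500 bp gave −2.30 for AP1 and −7.22 for SOX, and one of 100 bp −2.81 for SOX.

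Further settings were chosen after seeing the data. Distal peaks alone gave a W6-only median width of 402 bp and differences of 1.05 (D0), 1.39 (RUNX) and −3.41 (SOX). Peaks at the genome-wide background alone gave 424 bp and −13.6 (distal). The same GC mix in both classes gave −1.81 (SOX). The smallest pileups called, 4 at W2 and 5 at W6, limit what weak peaks can show, and an uncalled site may carry H3K27ac below these limits.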

Other observations

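In 1-Mb bins, the most W2-only peaks lay around Nfib on chromosome 4 (82000001 to 83000000), with 31 against 10 W6-only peaks, and around Fgfr2 and Tacc2 on chromosome 7 (130000001 to 131000000), with 31 against 20. Bins with few W6-only peaks beside many W2-only peaks held Mrtfa on chromosome 15 (27 against 7) and Jag1 on chromosome 2 (24 against 4). W6-only peaks were most numerous around Cmip on chromosome 8 (117000001 to 118000000), with 29 against 7, and around Trim29 and Pou2f3 on chromosome 9 (43000001 to 44000000), with 29 against 16. Bins around Sbno2, Stk11 and Polr2e on chromosome 10 (24 against 3) and Znfx1 on chromosome 2 (26 against 4) had few W2-only peaks. By chromosome, the number of W6-only peaks for each W2-only peak ranged over the autosomes from 0.809 on chromosome 18 to 1.36 on chromosomes 5 and 11.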
